A study of Mus musculus with 12 samples.

Results

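The genes described here encode the feedback arm of the ERK pathway: the dual-specificity phosphatases Dusp6, Dusp4 and Dusp5, the Sprouty and Spred inhibitors Spry1, Spry2, Spry4 and Spred1, and the ETS transcription factors Etv4 and Etv5. They are 9 of 48795 Ensembl genes in the count table, found there by their symbols. Dusp6 was chosen by its measured counts, for the interaction between LY6D and SCA1 over these 12 libraries, so its values are given as a description, with no test. The others came with it as genes of the same pathway, in a list chosen with earlier results of these data known. The RNA came from sorted prostate cells described as luminal. The mice were wild-type C57BL/6, 6 to 8 weeks of age, with no treatment, transgene or deletion in any group. Luminal is used here as the name of the sorted cells only. Marker genes of basal and endothelial cells were also detected in every library, at the levels given below. Whether the populations held luminal cells alone was not tested. Cells negative for CD31, CD45 and Ter119 (endothelium, leukocytes and red cells) were sorted into LY6D+ and LY6D- cells, each at SCA1low, SCA1int (intermediate) and SCA1high. LY6D and SCA1 (the product of Ly6a) are surface proteins of the Ly6 family. Each of the 6 populations had 2 libraries, made from 10 to 20 ng of total RNA with a kit that reads the 3′ ends of polyadenylated transcripts. The series text calls the replicates biological, but the labels do not say whether they were separate animals or pools. All p-values therefore measure the spread between these libraries.

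In this pathway, growth factors bind receptor tyrosine kinases, which act through RAS, RAF and MEK to phosphorylate the kinases ERK1 and ERK2. Active ERK switches on genes whose products brake it. DUSP6 removes the phosphates from ERK in the cytoplasm, DUSP4 and DUSP5 do so in the nucleus, the Sprouty and Spred proteins act further upstream around RAS and RAF, and ETV4 and ETV5 are transcription factors of the PEA3 group that lie downstream of fibroblast growth factor receptors. In the prostate, fibroblast growth factors from the stroma act on the epithelium through FGFR2.

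Sequences just upstream of the annotated gene starts were compared for the members that carried the results and for 1 member with no change called. Dusp6 and Spry2 are shown because they followed each other over the libraries, and Dusp5 because it did not follow them. The sequences are RefSeq's, on GRCm38.p6, 5′ to 3′ on the strand of the gene, at chr10:99262981-99263230 (+) for Dusp6, chr14:105896820-105897069 (-) for Spry2 and chr19:53528895-53529108 (+) for Dusp5. Capitals mark GGAAG, the form of the ETS core searched here, or its reverse complement CTTCC. They also mark the CArG box, the motif bound by serum response factor. The shorter GGAA was not searched and occurs unmarked in the sequences shown.
Dusp6: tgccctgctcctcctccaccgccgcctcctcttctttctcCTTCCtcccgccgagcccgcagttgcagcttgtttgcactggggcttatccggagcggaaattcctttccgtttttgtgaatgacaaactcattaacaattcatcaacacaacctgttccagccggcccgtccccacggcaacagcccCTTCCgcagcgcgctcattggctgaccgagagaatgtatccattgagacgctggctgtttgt
Spry2: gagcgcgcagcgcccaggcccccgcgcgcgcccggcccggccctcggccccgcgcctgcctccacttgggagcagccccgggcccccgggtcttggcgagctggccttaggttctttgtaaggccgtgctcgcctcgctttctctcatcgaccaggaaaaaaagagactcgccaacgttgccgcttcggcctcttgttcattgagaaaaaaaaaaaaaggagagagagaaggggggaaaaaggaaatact
Dusp5: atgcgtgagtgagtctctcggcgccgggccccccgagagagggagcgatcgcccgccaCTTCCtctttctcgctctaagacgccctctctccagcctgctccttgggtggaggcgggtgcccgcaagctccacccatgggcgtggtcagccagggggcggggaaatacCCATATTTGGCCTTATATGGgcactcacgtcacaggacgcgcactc

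The Dusp6 sequence held 2 ETS cores, beginning 210 and 62 bases before the RefSeq start, and no CArG box. The Spry2 sequence held neither GGAAG nor a CArG box, though it held the shorter GGAA. The Dusp5 sequence held 1 ETS core and 2 CArG boxes, which begin 82 and 72 bases before the RefSeq start and lie next to each other without overlap. Over 32851 mouse promoters of 250 upstream bases, 64.1% held at least 1 ETS core and 29.4% at least 2 on either strand. A CArG box was in 1.47% of them, and 2 or more boxes were in 6 promoters (0.0183%). The upstream sequences of 6 of the 9 members were matched, with 7 promoters in all. Of the others matched, Spry1 held neither motif, Spred1 held 1 ETS core, and Etv5 held 2 in 1 of its 2 promoters. The AP-1 site TGANTCA, present in 6.75% of promoters, was in none of the 7. These matches are letters in a window and describe no binding.

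Totals ran from 8436185 to 20022077 counts per library, and 3 counts, the limit that a count of 0 allows, corresponded to 0.127 to 0.353 CPM (counts scaled to a common library total with TMM factors). The genes of the sorted proteins followed the gates: the lowest LY6D+ library had 37 CPM of Ly6d and the highest LY6D- library 3.85, and the lowest SCA1high library had 181 CPM of Ly6a and the highest SCA1low library 68.8. Replicates of 1 population correlated at 0.66 to 0.71 across genes, and 2 of 12 libraries correlated best with their own replicate. LY6D- SCA1low replicate 2 stood nearer to LY6D- SCA1high replicate 1 than to its own replicate, and LY6D+ SCA1high replicate 2 was the shallowest. Values without these 2 libraries are given where they end a call or move a called value by over 1.5 times. Genes high in LY6D+ SCA1high replicate 2 were found at a median of 7.61% of their level in LY6D+ SCA1int replicate 2 (21 genes), and those of LY6D- SCA1low replicate 1 at 3.14% in LY6D- SCA1high replicate 2 (41 genes).

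Dusp6 (ENSMUSG00000019960, chromosome 10, 99263231 to 99267489, plus strand, from GENCODE M21 on GRCm38) was the most abundant member, ranked 245th of all genes by mean CPM. In LY6D+ cells it had 628 and 1210 CPM at SCA1low, 1040 and 487 CPM at SCA1int, and 917 and 1030 CPM at SCA1high. In LY6D- cells it had 16.5 and 28.4 CPM at SCA1low, 379 and 301 CPM at SCA1int, and 158 and 413 CPM at SCA1high. Every LY6D+ library thus lay above every LY6D- library, and both LY6D- SCA1low libraries lay far below the other 10. The first order was found in 0.812% of all tested genes, and LY6D- SCA1low lay below the other 10 in 3.39%. Dusp6 was chosen by its counts, so nothing is read from these orders. In bulk populations, fewer cells that express a gene and less RNA of it per cell cannot be told apart.

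From the highest mean to the lowest, Dusp6 stood at 973 ± 79.2 CPM in LY6D+ SCA1high, 918 ± 410 in LY6D+ SCA1low, 761 ± 389 in LY6D+ SCA1int, 340 ± 55.2 in LY6D- SCA1int, 285 ± 180 in LY6D- SCA1high and 22.4 ± 8.44 in LY6D- SCA1low (mean ± SD, n = 2 libraries each). The 3 LY6D+ populations did not differ beyond their spread, and neither did LY6D- SCA1int and LY6D- SCA1high. The gaps lay between LY6D+ SCA1int and LY6D- SCA1int, and between LY6D- SCA1high and LY6D- SCA1low. The ratio of mean CPM, LY6D+ over LY6D-, was 40.9 at SCA1low, 2.24 at SCA1int and 3.41 at SCA1high. The ratio of SCA1high over SCA1low was 1.06 in LY6D+ cells and 12.7 in LY6D- cells. The largest ratio between replicates of 1 population was 2.62.

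**Figure D1:**
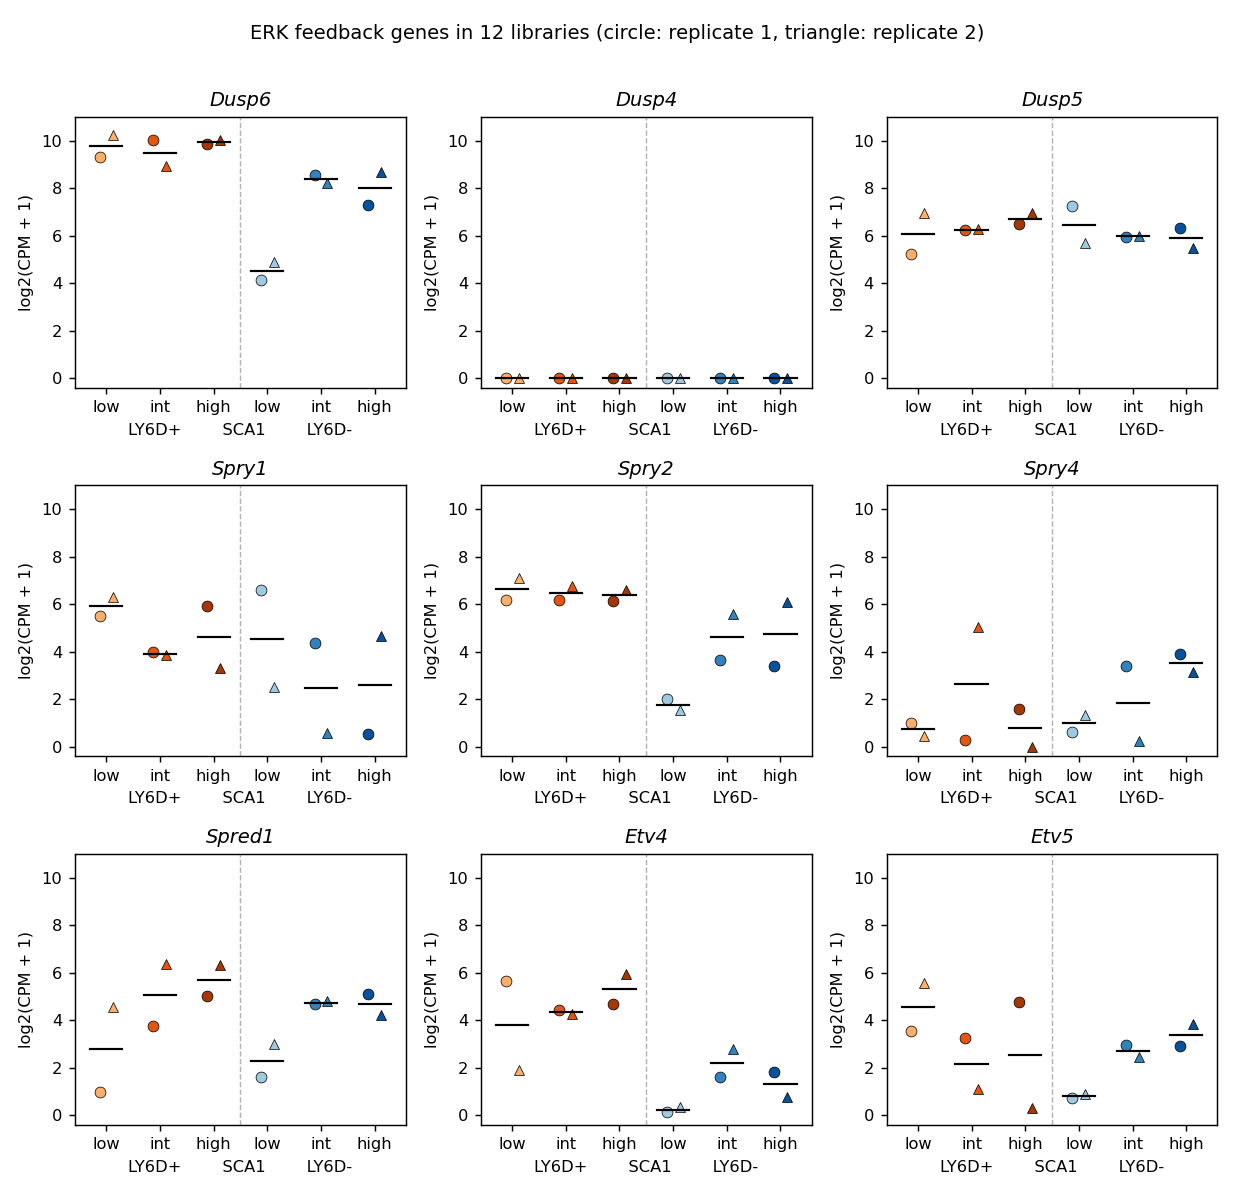
Level of each of the 9 genes in the 12 libraries as log2(CPM + 1), on the same axis for all genes. Circles are replicate 1, triangles replicate 2 and bars the mean of the 2 on the log scale, with LY6D+ populations left of LY6D- populations. Dusp6 and Spry2 are lowest in both LY6D- SCA1low libraries, Dusp5 lies between 36.7 and 151 CPM in all libraries, and Dusp4 is at 0 throughout.

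On the log2 scale of the model fitted over all genes, Dusp6 was higher in LY6D+ than in LY6D- cells by 5.35 at SCA1low, 1.16 at SCA1int and 1.77 at SCA1high. Between SCA1high and SCA1low, its log2 fold change was 0.08 in LY6D+ cells, a value whose sign differed in 8 of 19 alternative settings, and 3.67 in LY6D- cells. The difference of these differences was -3.58 with all libraries and -4.13 without the 2 doubted libraries. With 1 library left out it was -2.84 (without LY6D- SCA1high replicate 2) to -4.2 (without LY6D- SCA1low replicate 2). Without LY6D- SCA1high replicate 2 the SCA1 value in LY6D- cells was 2.76. The LY6D value within SCA1high was 1.18 without LY6D- SCA1high replicate 1 and 2.51 without replicate 2, and within SCA1int it was 0.53 without LY6D+ SCA1int replicate 1. This contrast chose the gene, so nothing is read from its size. Over all 15270 tested genes, 6 (0.0393%) were called for the same contrast and 11 (0.072%) for the interaction with all 3 SCA1 levels.

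Of the other 8 members, 7 passed the filter on low counts. In LY6D+ against LY6D- cells, averaged over the SCA1 levels, edgeR called 1 of these 7 at an adjusted p below 0.05, and it was higher (Spry2). Over all tested genes, 2.48% were called in this comparison (1.27% higher and 1.21% lower). Higher genes made up 51.2% of these calls, 35.8% with RLE size factors and 46% with library size alone. The median log2 fold change of the 7 was 1.12, against 0.03 over all tested genes, and 6 of the 7 were positive. An unadjusted p below 0.05 was reached by 2 of the 7 and by 20.4% of all tested genes. DESeq2 called Spry2 and Etv4, beside 15.4% of all genes, and limma called Spry2, beside 1.43%.

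Spry2 (ENSMUSG00000022114, chromosome 14, 105891947 to 105896819, minus strand), a Sprouty inhibitor of receptor tyrosine kinase signalling, had the pattern closest to Dusp6 among the members. In LY6D+ cells it had 72.2 and 135 CPM at SCA1low, 72.4 and 107 CPM at SCA1int, and 70.2 and 96.8 CPM at SCA1high. In LY6D- cells it had 3.01 and 1.9 CPM at SCA1low, 11.5 and 47.3 CPM at SCA1int, and 9.61 and 67 CPM at SCA1high. The LY6D+ libraries (70.2 to 135 CPM, median 84.6) did not overlap the LY6D- libraries (1.9 to 67 CPM, median 10.5). Of the 7 tested members other than Dusp6, Spry2 was the 1 without overlap, and 0.812% of all tested genes were higher in all 6 LY6D+ libraries than in all 6 LY6D- libraries. LY6D- SCA1int and LY6D- SCA1high differed less from each other (29.4 ± 25.3 and 38.3 ± 40.6 CPM, SD, n = 2) than their replicates did.

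Averaged over SCA1, Spry2 was higher in LY6D+ than in LY6D- cells by 2.71 ± 0.69 on the log2 scale (SE, edgeR adjusted p = 0.0306, higher at all 3 SCA1 levels). The fold change lay between 2.42 and 3.34 (without LY6D- SCA1high replicate 2) over 19 alternatives, with adjusted p from 0.00122 to 0.135, and the call was lost in 9 of them. Without 1 library, the edgeR adjusted p was 0.0765 (LY6D+ SCA1low replicate 2), 0.0537 (LY6D+ SCA1int replicate 2), 0.0519 (LY6D+ SCA1high replicate 2), 0.0577 (LY6D- SCA1low replicate 2), 0.128 and 0.0585 (LY6D- SCA1int replicates 1 and 2) or 0.135 (LY6D- SCA1high replicate 1). Without both doubted libraries it was 0.0707 at a log2 fold change of 2.54, and with RLE size factors it was 0.058 at 2.57. Within SCA1low the log2 fold change was 5.4 ± 1.37 (SE, edgeR adjusted p = 0.0775). It was 1.61 ± 1.15 within SCA1int (adjusted p = 0.7) and 1.12 ± 1.14 within SCA1high (adjusted p = 0.769). Between SCA1high and SCA1low, Spry2 had a log2 fold change of 3.96 ± 1.28 in LY6D- cells (edgeR adjusted p = 0.265) and of -0.31 ± 1.13 in LY6D+ cells (adjusted p = 0.947), which was 0.11 with library size as the only scaling.

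Etv4 (ENSMUSG00000017724, chromosome 11, 101769742 to 101785371, minus strand) was scarcer. In LY6D+ cells it had 48.8 and 2.8 CPM at SCA1low, 20.7 and 18.3 CPM at SCA1int, and 25 and 61.3 CPM at SCA1high. In LY6D- cells it had 0.108 and 0.26 CPM at SCA1low (1 and 3 counts), 2.06 and 6.01 CPM at SCA1int, and 2.58 and 0.72 CPM at SCA1high. The medians were 22.9 CPM in LY6D+ and 1.39 CPM in LY6D- libraries. The groups overlapped through LY6D+ SCA1low replicate 2, which lay below 1 LY6D- SCA1int library. The log2 fold change averaged over SCA1 was 4.68 ± 1.39 (SE, edgeR adjusted p = 0.0677). It passed the threshold in DESeq2 (4.58, adjusted p = 2.88e-06) and in edgeR without LY6D+ SCA1low replicate 2 (5, adjusted p = 0.0476). Without both doubted libraries it was 4.68 with an adjusted p of 0.255.

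Etv5 (ENSMUSG00000013089, chromosome 16, 22381309 to 22439719, minus strand), the closest relative of Etv4 here, had 10.6 and 46.4 CPM at SCA1low, 8.41 and 1.16 CPM at SCA1int, and 26.2 and 0.235 CPM at SCA1high in LY6D+ cells. LY6D- cells had 0.645 and 0.866 CPM at SCA1low, 6.85 and 4.55 CPM at SCA1int, and 6.57 and 13.5 CPM at SCA1high. Its replicates differed by up to 111 times within LY6D+ SCA1high, and the LY6D groups overlapped. The averaged log2 fold change of 1.79 ± 1.42 (SE) had an edgeR adjusted p of 0.53, and without LY6D+ SCA1high replicate 1 it was -0.12. At SCA1low alone, both LY6D+ libraries lay above both LY6D- libraries (log2 fold change 5.22 ± 2.87, SE, edgeR adjusted p = 0.434). The share of all genes with this order was not counted, so nothing is read from it.

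Of the other phosphatases, Dusp5 (ENSMUSG00000034765, chromosome 19, 53529109 to 53542431, plus strand) acts on nuclear ERK. It had 36.7 and 122 CPM at SCA1low, 74.2 and 76.8 CPM at SCA1int, and 89 and 122 CPM at SCA1high in LY6D+ cells. LY6D- cells had 151 and 50.4 CPM at SCA1low, 60.6 and 62.6 CPM at SCA1int, and 79 and 44.1 CPM at SCA1high. Its highest library was 1 of the LY6D- SCA1low pair, in which Dusp6 was lowest. The averaged log2 fold change was 0.24 ± 0.54 for LY6D (SE, edgeR adjusted p = 0.89) and -0.15 ± 0.66 for SCA1high against SCA1low (adjusted p = 0.975). The sign of each turned in 3 of 19 alternatives, the first to -0.12 without LY6D+ SCA1low replicate 2 and the second to 0.38 with library size as the only scaling. Dusp4 (ENSMUSG00000031530, chromosome 8, 34807297 to 34819894, plus strand) had 0 counts in all 12 libraries and was not tested. Whether its transcript was absent or its reads were not counted cannot be told apart from the table.

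Of the remaining inhibitors, Spred1 (ENSMUSG00000027351, chromosome 2, 117121374 to 117182279, plus strand), which binds neurofibromin at the membrane, had 0.996 and 22.4 CPM at SCA1low, 12.6 and 82.3 CPM at SCA1int, and 31.3 and 79.7 CPM at SCA1high in LY6D+ cells. LY6D- cells had 2.04 and 6.93 CPM at SCA1low, 24.5 and 26.8 CPM at SCA1int, and 33.9 and 17.7 CPM at SCA1high. In each LY6D state the SCA1high libraries lay above both SCA1low libraries, but over both states the groups overlapped. The share of all genes with such an order was not counted, so nothing is read from it. For SCA1high against SCA1low the log2 fold change was 2.38 ± 1.24 (SE, edgeR adjusted p = 0.443). For LY6D+ against LY6D- it was 1.12 ± 0.97 (adjusted p = 0.573), and it was -0.02 without LY6D+ SCA1low replicate 2.

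Spry1 (ENSMUSG00000037211, chromosome 3, 37639947 to 37644598, plus strand) ranged from 8.94 to 78.6 CPM in LY6D+ libraries and from 0.469 to 95.5 CPM in LY6D- libraries. Its highest value, 95.5 CPM, was in LY6D- SCA1low replicate 1, whose replicate had 4.67 CPM. Replicates of LY6D- SCA1high differed by 52.3 times. Spry4 (ENSMUSG00000024427, chromosome 18, 38586247 to 38601415, minus strand) ranged from 0 to 31.5 CPM in LY6D+ and from 0.172 to 14.1 CPM in LY6D- libraries. Its highest library, LY6D+ SCA1int replicate 2, stood 146 times above its replicate. The LY6D log2 fold change was 0.75 ± 1.05 for Spry1 (SE, edgeR adjusted p = 0.772) and -0.79 ± 1.65 for Spry4 (adjusted p = 0.878), the second turning to 0.82 without LY6D- SCA1int replicate 1. No difference between populations was detectable for either gene against this spread. Genes on the opposite strand overlap Dusp5, Spry1 and Spry4, and the strand setting of the counting is not given in the sources used here, so reads of such partners cannot be told apart.

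**Figure D2:**
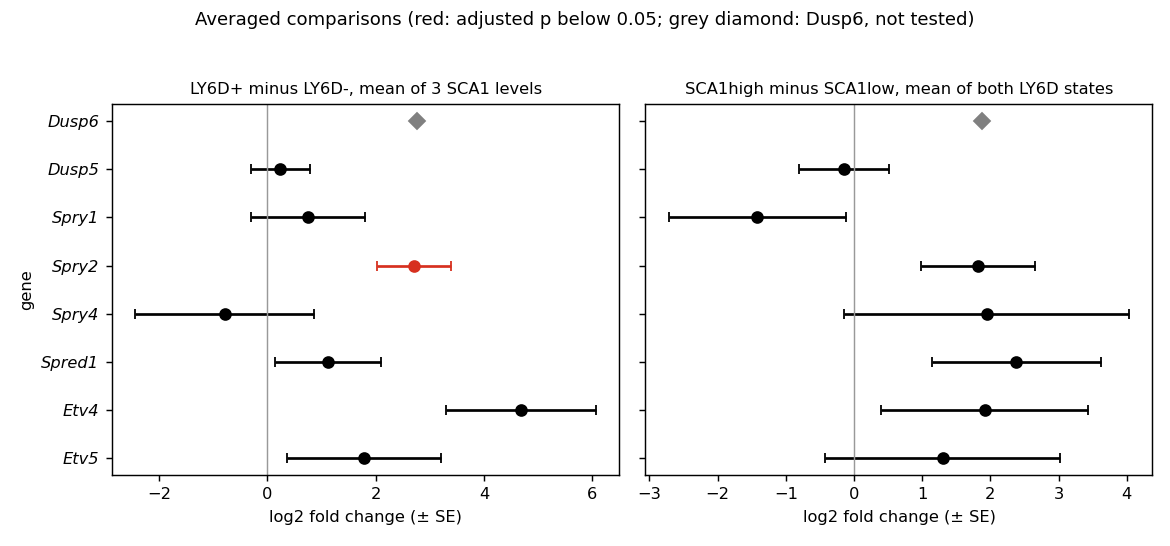
Log2 fold change of each tested member for LY6D+ minus LY6D- cells (left) and SCA1high minus SCA1low cells (right), with bars of 1 SE. Red marks an edgeR adjusted p below 0.05 and the grey diamond marks Dusp6, which was not tested. Spry2, at 2.71 for LY6D, is the called member, and no member is called for SCA1.

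Averaged over LY6D, edgeR called 0 of the 7 members between SCA1high and SCA1low cells (1.21% of all genes), and DESeq2 (8.84% of all genes) and limma (0.792%) also called 0. At an unadjusted p below 0.05 there was 1 (Spry2, 1.82 ± 0.83, adjusted p = 0.389), beside 12.1% of all genes. The median log2 fold change of the 7 was 1.82, against 0.15 over all genes. In LY6D- cells alone the median was 3.09 against 0.53, and edgeR called 0 (0.635% of all genes), with 1 at an unadjusted p below 0.05 (6.65% of all genes), while DESeq2 called Spry2 (3.96% of all genes). In LY6D+ cells alone the median was 0.42 against -0.17, with 0 called by edgeR (0.327% of all genes), DESeq2 (8.56%) or limma (0.183%) and 0 at an unadjusted p below 0.05 (8.61% of all genes). For LY6D+ against LY6D- cells, edgeR called 0 of 7 within SCA1low (0.472% of all genes), 0 within SCA1int (0.203%) and 0 within SCA1high (0.262%). An unadjusted p below 0.05 was reached by 2 members within SCA1low (12% of all genes), 0 within SCA1int (6.17%) and 0 within SCA1high (11.7%). In that order DESeq2 called 3 (Spry2, Etv4 and Etv5), 0 and 1 (Etv4), beside 13.5%, 4.9% and 9.37% of all genes.

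The members thus fell apart in how they followed Dusp6. The Pearson correlation of log2(CPM + 1) with Dusp6 over the 12 libraries, which share populations, was 0.92 for Spry2, 0.72 for Etv4, 0.55 for Etv5 and 0.47 for Spred1. It was 0.13 for Spry1, -0.05 for Spry4 and -0.06 for Dusp5. Spry2 ranked 18th of 7384 genes by this measure. Like Dusp6, Spry2 and Etv4 were lower in both LY6D- SCA1low libraries than in the other 10. This order was found in 3.39% of all tested genes.

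**Figure D3:**
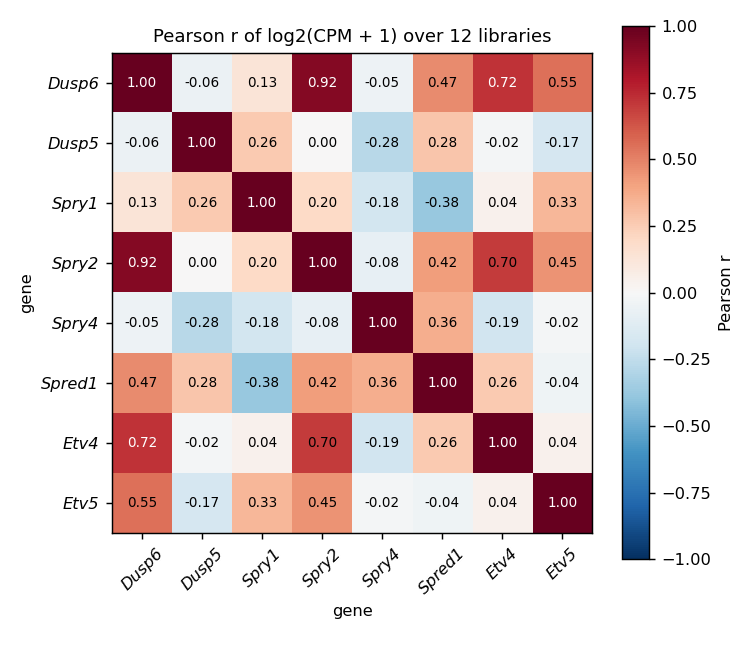
Pearson correlation of log2(CPM + 1) between the 8 detected members over 12 libraries, as numbers and colour. Dusp6, Spry2 and Etv4 correlate at 0.70 to 0.92 with each other, while Dusp5, Spry1 and Spry4 correlate with Dusp6 between -0.06 and 0.13.

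Among the genes whose pattern was most like that of Dusp6, of 7383 with a mean of at least 10 CPM, were Apoe (apolipoprotein E, r = 0.97), Psma1 (a proteasome subunit, 0.96), Agrn (agrin, a basement membrane proteoglycan, 0.96) and Krt5 (the basal keratin, 0.95). The mean level of Krt5 in LY6D+ cells was 323 ± 194 CPM at SCA1low, 301 ± 23.5 CPM at SCA1int and 484 ± 177 CPM at SCA1high (SD, n = 2). In LY6D- cells it was 3.96 ± 0.277 CPM at SCA1low, 147 ± 73.2 CPM at SCA1int and 32.1 ± 13.8 CPM at SCA1high. These correlations describe 12 libraries and carry no test.

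Sums of cell type markers differed between the populations. The basal sum was, like Dusp6, highest in LY6D+ libraries and lowest in LY6D- SCA1low, and the endothelial and luminal sums were not. The 7 basal markers, all tested, summed to 2000 to 4380 CPM in LY6D+ libraries, against 84.8 to 231 CPM in LY6D- SCA1low, 1520 to 1860 CPM in LY6D- SCA1int and 498 to 604 CPM in LY6D- SCA1high. Dusp6 and the basal sum were both lowest in LY6D- SCA1low. Between the other LY6D- populations, the basal sum of SCA1high was below that of SCA1int in every library. Dusp6 overlapped there (158 and 413 against 379 and 301 CPM), with means in the same order (285 ± 180 against 340 ± 55.2 CPM, SD). The 12 endothelial markers, all tested, summed to 17.7 to 464 CPM in LY6D+ libraries, against 336 to 728, 1100 to 1520 and 3660 to 4210 CPM in LY6D- cells at SCA1low, SCA1int and SCA1high, although CD31+ cells were gated out. The 9 luminal markers were detected in every library, at 1330 to 5450 CPM in LY6D+ and 1150 to 12600 CPM in LY6D- libraries, and at 8520 to 12600 CPM in LY6D- SCA1low. Pbsn (probasin, a secreted protein) made up 66.6% of that sum over all libraries, and the other 8 summed to 991 to 1640 CPM in LY6D+ libraries, against 821 to 1960 CPM in LY6D- libraries and 1360 to 1960 CPM in LY6D- SCA1low. The 10 stromal and smooth muscle markers summed to 789 to 1270 CPM in LY6D+ and 244 to 763 CPM in LY6D- libraries. Dcn (decorin, a matrix proteoglycan) made up 76.7% of this sum, and without it the groups overlapped (41.5 to 412 CPM against 85 to 311 CPM). The 8 leukocyte markers, 3 of them tested, summed to at most 31 CPM, with Cd3e at 0 throughout. The 6 erythroid markers ranged from 4.07 to 828 CPM, with Alas2 at 0 throughout. The part of these cell types in the values of Dusp6, Spry2 and Etv4 was not tested.

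**Figure D4:**
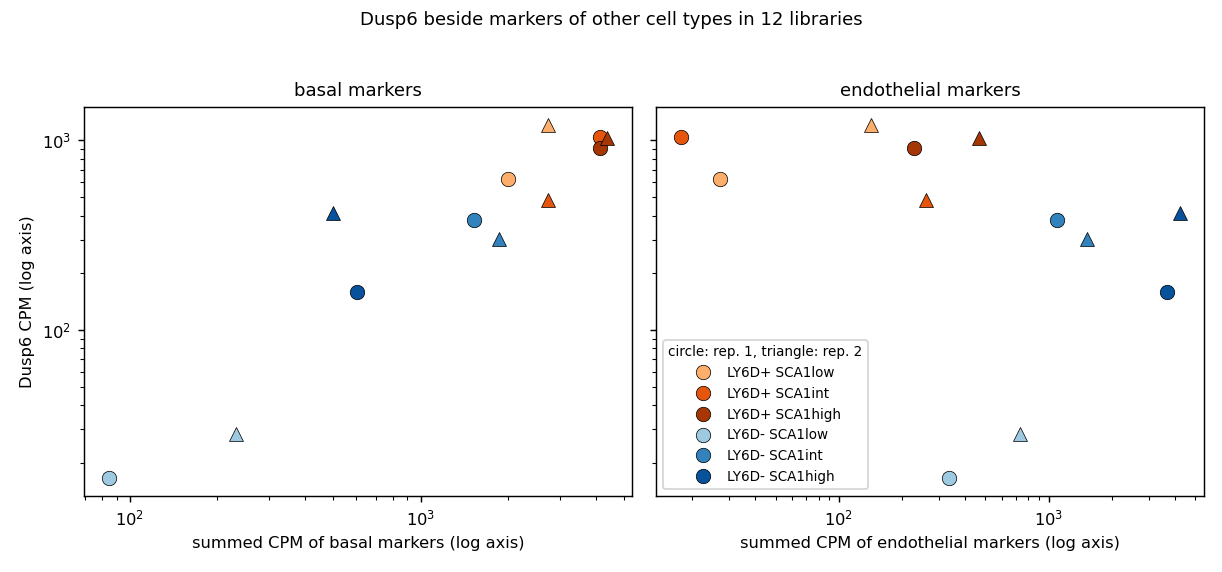
Dusp6 CPM against the summed CPM of 7 basal markers (left) and 12 endothelial markers (right) in the 12 libraries, on log axes. Circles are replicate 1 and triangles replicate 2. LY6D+ libraries lie at high Dusp6 and high basal sums, LY6D- SCA1low libraries at the low end of both, and LY6D- SCA1high libraries have the highest endothelial sums.

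The rest of the pathway was read from 5 lists, also chosen with earlier results of these data known. Each is described by counts beside the 2.48% of genes called for LY6D and the 1.21% called for SCA1. Among growth factor ligands, 11 of 20 were tested, and 3 rose and 0 fell in LY6D+ against LY6D- cells (median log2 fold change 1.11). Hbegf, a ligand of the EGF receptor, was higher by 1.39 ± 0.22 on the log2 scale (SE, edgeR adjusted p = 0.000281). It had 482 to 1080 CPM in LY6D+ libraries, against 91.7 and 142 CPM in the LY6D- SCA1low pair and 420 to 616 CPM in the other LY6D- libraries. Pdgfa, a platelet-derived growth factor chain, was higher by 2.2 ± 0.46 (adjusted p = 0.00726), with 149 to 586 CPM in LY6D+ and 2.9 to 185 CPM in LY6D- libraries. Its value was 3.09 without LY6D- SCA1low replicate 2 and 3.2 without both doubted libraries. Nrg1, a ligand of ERBB3 and ERBB4, passed at an adjusted p of 0.0469, but it had 94.3 CPM in LY6D+ SCA1int replicate 1 and 0 to 12.9 CPM in the other LY6D+ libraries, against at most 0.257 CPM in LY6D- libraries. Its call did not hold in 13 of 19 alternatives. They included a replicate block and leaving out any LY6D- library or replicate 1 of any LY6D+ population. Nearly all LY6D- libraries held few or no counts of Nrg1, so its fitted fold change depends on the prior count.

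Among receptors, 12 of 14 were tested, and 2 rose and 0 fell with LY6D (median 0.72). Egfr, the EGF receptor, had 15.9 to 173 CPM in LY6D+ and 0.156 to 26.9 CPM in LY6D- libraries, and was 0.43 and 0.433 CPM in the LY6D- SCA1low pair. Its log2 fold change was 4.13 ± 0.96 (SE, edgeR adjusted p = 0.0153), and the call was lost without LY6D- SCA1int replicate 2 or LY6D- SCA1high replicate 1 (adjusted p up to 0.0567). Without LY6D+ SCA1high replicate 2 the log2 fold change was 3.53, and without LY6D- SCA1high replicate 2 it was 5.75. Fgfr2, a fibroblast growth factor receptor of epithelium, had 62.9 to 252 CPM in LY6D+ and 2.69 to 101 CPM in LY6D- libraries, with a log2 fold change of 2.46 ± 0.59 (adjusted p = 0.0181). That call was lost without LY6D+ SCA1int replicate 1, LY6D- SCA1int replicate 2 or LY6D- SCA1high replicate 2 (adjusted p up to 0.0784). In the cascade between receptor and ERK, with all 20 genes tested, edgeR called 0 with LY6D (3 at an unadjusted p below 0.05, beside 20.4% of all genes, median -0.12) and 0 with SCA1 (1 at an unadjusted p below 0.05, beside 12.1%, median 0.55).

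Other inhibitors moved in both directions. Of 22, 20 were tested, and 2 rose and 1 fell with LY6D (median 0.98). Errfi1, an inhibitor of the EGF receptor kinase, was higher by 1.81 ± 0.41 on the log2 scale (SE, edgeR adjusted p = 0.0128), with 274 to 600 CPM in LY6D+ and 10.3 to 220 CPM in LY6D- libraries. Its value was 2.76 without LY6D- SCA1low replicate 2 and 2.91 without both doubted libraries. Dusp14, an atypical dual-specificity phosphatase, was higher by 5.44 ± 1.37 (adjusted p = 0.0273), with 2.96 to 96.8 CPM in LY6D+ and 0.108 to 5 CPM in LY6D- libraries. Its call was lost without LY6D+ SCA1int replicate 1 and without any 1 of the LY6D- libraries (adjusted p up to 0.214). Dusp2, a nuclear phosphatase of immune and stress responses, had a log2 fold change of -3.87 ± 0.87 (SE, edgeR adjusted p = 0.0127), with 0.118 to 46.9 CPM in LY6D+ and 32.5 to 195 CPM in LY6D- libraries. Its value was -6.38 without LY6D+ SCA1high replicate 1.

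Of 16 other ERK target genes, all tested, 5 rose and 0 fell with LY6D (median 0.67). The immediate early genes Egr1 and Junb had the smallest errors: Egr1 was higher by 0.88 ± 0.13 on the log2 scale (SE, edgeR adjusted p = 8.57e-05) and Junb by 0.92 ± 0.16 (adjusted p = 0.000721). Egr1 had 2240 to 4920 CPM in LY6D+ and 1590 to 2990 CPM in LY6D- libraries, and Junb had 2340 to 2750 CPM against 604 to 1810 CPM. Both calls were lost in DESeq2 (0.75 for Egr1, adjusted p = 0.144, and 0.78 for Junb, adjusted p = 0.182). Fosl1, which encodes the AP-1 subunit FRA1, was higher by 4.73 ± 0.89 (adjusted p = 0.00208). It had 58 to 121 CPM in LY6D+ libraries, against 0.215 and 0.346 CPM in the LY6D- SCA1low pair and 1.63 to 57.9 CPM in the other LY6D- libraries, and its value was 6.14 without LY6D- SCA1int replicate 1. Phlda1 was higher by 1.79 ± 0.38 (adjusted p = 0.0078), with 218 to 447 CPM in LY6D+ and 11.8 to 263 CPM in LY6D- libraries, and its value was 2.38 without both doubted libraries. The fifth was Ier3 (0.75 ± 0.17, adjusted p = 0.0153), named after its values were seen, whose call was lost with RLE size factors (0.62) and in DESeq2 (0.61). The 16 targets summed to 9680 to 12700 CPM in LY6D+ libraries, against 4010 to 4790 CPM in LY6D- SCA1low and 7400 to 9220 CPM in the other LY6D- libraries.

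Within SCA1low, 2 ligands (Hbegf and Pdgfa) and 5 targets (Egr1, Junb, Fosl1, Phlda1 and Ier3) rose in LY6D+ against LY6D- cells, out of 11 and 16 tested, beside 0.472% of all genes. Within SCA1int and SCA1high, edgeR called 0 of the 79 tested genes of the 5 lists. An unadjusted p below 0.05 was reached by 12 to 13 of the 79 at each level, beside 6.17% of all genes within SCA1int and 11.7% within SCA1high. These names were chosen after their values were seen, and the difference between SCA1 levels was not tested over the lists.

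Between SCA1high and SCA1low cells, averaged over LY6D, 1 of 11 ligands rose (Hbegf, 1.52 ± 0.27, SE, edgeR adjusted p = 0.00153) and 3 of 16 targets rose. The targets were Ier3 (1.36 ± 0.21, adjusted p = 0.000254), Ccnd1, which encodes cyclin D1 (1.59 ± 0.35, adjusted p = 0.0143), and Mcl1, which encodes an anti-apoptotic protein (1.43 ± 0.35, adjusted p = 0.0346). Among receptors, cascade and other inhibitors edgeR called 0 genes, while 4 of 12, 1 of 20 and 7 of 20 tested reached an unadjusted p below 0.05, beside 12.1% of all genes. The calls of Hbegf (1.24, adjusted p = 0.0697) and Ier3 (1.1, adjusted p = 0.0998) were lost in DESeq2. The Ccnd1 call was lost without LY6D+ SCA1low replicate 1, LY6D+ SCA1high replicate 2, LY6D- SCA1low replicate 2 or LY6D- SCA1high replicate 2 (log2 fold change 1.28 to 1.8 over the libraries left out in turn), and without both doubted libraries (1.22, adjusted p = 0.243). It was also lost with RLE size factors (adjusted p = 0.0933), in DESeq2 (0.102) and in limma (0.0845). The Mcl1 call was lost without any of 7 libraries, namely both LY6D+ SCA1low libraries, LY6D+ SCA1high replicate 2, LY6D- SCA1low replicate 1, LY6D- SCA1int replicate 2 and both LY6D- SCA1high libraries (1.16 to 1.52). It was also lost with RLE size factors (adjusted p = 0.117), without the filter on low counts (0.0841), in DESeq2 (0.101) and in limma (0.093). In LY6D- cells alone, Hbegf, Ier3 and Mcl1 rose, 3 of the 79 tested genes of the 5 lists, beside 0.635% of all genes. In LY6D+ cells alone 0 of the 79 were called, beside 0.327% of all genes. The difference between the LY6D states was not tested over the lists. All genes together shifted by a median of 0.15 in the averaged comparison, by -0.12 with RLE size factors and by 0.63 with library size alone. Higher genes made up 35.7% of the calls over all genes, 18.2% with RLE size factors and 70.5% with library size alone.

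**Figure D5:**
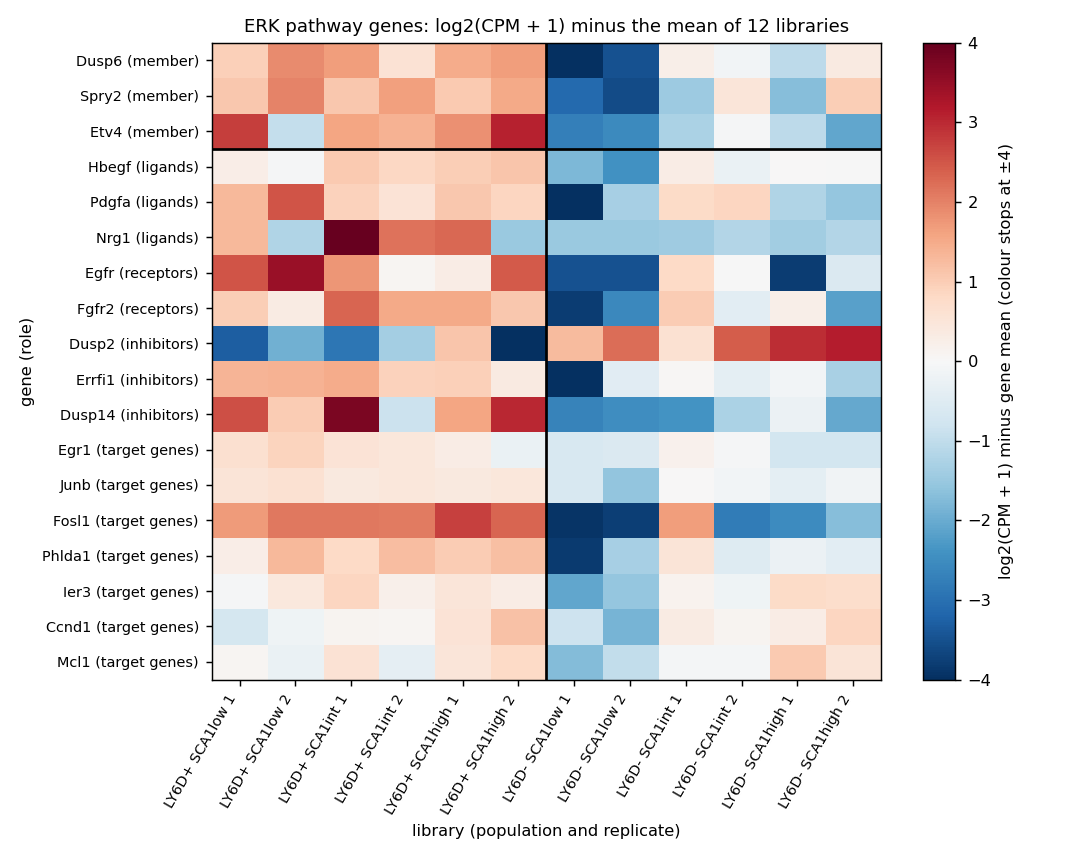
Level of Dusp6, Spry2 and Etv4 and of the 15 called genes of the other pathway lists in the 12 libraries, as log2(CPM + 1) minus the mean of the gene over the libraries. Red is above that mean and blue below, LY6D+ libraries stand left of LY6D- libraries, and the colour stops at 4 on either side. The 15 genes were chosen by their calls in these libraries, and Dusp2 is the called gene that is lower in LY6D+ cells.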

How the data were processed

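Per the submitters' processing notes, reads were handled with STAR 2.5.1, cutadapt 1.9.1, featureCounts of Subread, Picard 1.96, SAMtools 1.3.1 and edgeR on mm10. The order of steps, the gene models and the strandedness are not given there, and no label names molecular identifiers. The authors deposited raw counts per Ensembl gene and a table of normalised signal values. The deposited signal values equal TMM-scaled CPM recomputed from the counts, within a relative 4.44e-16. Symbols matched 48349 of 48795 identifiers.

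From the counts, edgeR 4.0.16 (R 4.3.3) was run with TMM scaling, filterByExpr by population (15270 genes), 1 mean per population, glmQLFit and glmQLFTest over all 12 libraries (6 residual degrees of freedom, common dispersion 1.65), with p-values adjusted over all these genes (Benjamini-Hochberg) and a threshold of 0.05. Standard errors are log2 fold changes over the square root of F. The procedure was tested on simulated data, where it missed most of the changes put in. A gene that was not called is therefore not shown to be unchanged. Floors cover counting error only, while the SE includes the spread between libraries and the SD is the spread between replicates. The column headers give replicate 1 of every population the same prefix and replicate 2 a different prefix, whose meaning is not stated. Deviations of same-numbered replicates were hardly correlated, which does not exclude a pairing. The main fit held no pairing, and a replicate block was run as an alternative.

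The members, the gene lists and the naming rule were chosen with earlier results of these data known. The rule names all members, at most 4 called genes per pathway list and averaged comparison by p, and the 5 genes most like Dusp6. Not every gene so named is reported here. Alternatives were RLE size factors, library size alone, no filter on low counts, DESeq2 1.42.0, a replicate block, limma 3.58.1 on log2(signal + 1), each library left out, and both doubted libraries left out.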

Additional observations from a re-analysis of the deposited data

Results flagged for a closer look

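The LY6D difference of Ier3, an immediate early gene and ERK target, was above 0 at SCA1low and SCA1int and below 0 at SCA1high. The LY6D groups did not overlap at any level, but the share of all genes with such an order was not counted, so nothing is read from it. The log2 fold change of Ier3, LY6D+ against LY6D-, was 1.99 ± 0.31 within SCA1low (SE, edgeR adjusted p = 0.000587). It was 0.56 ± 0.3 within SCA1int (0.665) and -0.32 ± 0.3 within SCA1high (0.733). The values at SCA1int and SCA1high were thus not called, and the negative value was close to its SE. The difference between SCA1high and SCA1low was tested: it was -2.31 ± 0.43 (SE, edgeR adjusted p = 0.0284, over all genes), beside 0.0393% of all genes called for this contrast. The gene was singled out after this value was seen. The call was lost with RLE size factors (-1.97, adjusted p = 0.107), in DESeq2 (-1.97, 0.223) and in limma (-2.29, 0.18), and held when any 1 library was left out.

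For 2 other ERK target genes the libraries separated in opposite directions, but none of the values below was called. The difference was not tested, and the share of all genes that separate so was not counted. Junb had a log2 fold change of SCA1high against SCA1low of -0.15 ± 0.27 in LY6D+ cells (SE, edgeR adjusted p = 0.868). In LY6D- cells it was 0.77 ± 0.27 (adjusted p = 0.392). Ccnd1 had a log2 fold change of LY6D+ against LY6D- of 0.86 ± 0.49 within SCA1low (adjusted p = 0.454). Within SCA1int it was -0.14 ± 0.49 (adjusted p = 0.976). Both negative values were smaller than their SE.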

How the results depend on the processing

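Of the 7 tested members, the number called for LY6D (1) was 0 with RLE size factors and without both doubted libraries, 2 in DESeq2, and 0 to 1 when each library was left out. DESeq2 called 1 within SCA1high, 3 within SCA1low and 1 for SCA1 in LY6D- cells, where edgeR called 0. Within SCA1low it was 0 to 1 with a library left out. Genes called over the table (379 for LY6D and 185 for SCA1) were 2394 and 1288 in DESeq2 and 218 and 121 in limma, and ran from 286 to 492 and from 185 to 304 with a library left out. Deviations of same-numbered replicates were hardly correlated (r of -0.2 to 0.13 over 15 pairs, 2 above 0.1), which does not exclude a pairing. With a replicate block, the calls were 423 and 245 genes and 1 and 0 members, against 1 and 0 without it. Log2 fold changes that turned sign, none of them called, are given as their range with a library left out. For LY6D these were Dusp5 (-0.12 to 0.55, and -0.02 without both doubted libraries), Spry4 (-3.08 to 0.82), Spred1 (-0.02 to 1.44) and Etv5 (-0.12 to 2.07). For SCA1 they were Dusp5 (-0.52 to 0.24, and 0.38 with library size alone), Spry1 (-3.94 to 0.25), Spry4 (-1.47 to 2.28) and Etv5 (-1.57 to 1.83). In LY6D+ cells they were Etv4 (-0.46 to 3.89, and -0.03 without both doubted libraries) and Spry2 (0.11 with library size alone). The causes were not tested. The calls of Dusp2, Errfi1, Fosl1, Hbegf, Pdgfa and Phlda1 for LY6D held in all 19 alternatives. Those of Egr1, Junb and Ier3 for LY6D, and of Hbegf, Ier3, Ccnd1 and Mcl1 for SCA1, were lost in DESeq2. Without both doubted libraries, the calls of Nrg1 and Dusp14 for LY6D and of Ccnd1 for SCA1 were lost. Etv4 and Spry4 had few counts in several libraries.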
